A study of Homo sapiens with 8 samples.

Results

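The 41 nuclear genes described here encode subunits of respiratory complexes II, III and IV and of the ATP synthase, also called complex V. They were chosen as listed subunit genes found in the read-count table, 41 of its 23393 genes. Complex II had 4 of them (SDHA to SDHD), complex III with its electron carrier cytochrome c 10, complex IV 12 and complex V 15. All 41 passed the filter on low counts and were among the 15262 genes tested.

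RNA-seq was performed on MDA-MB-231 cells, a human breast cancer line of triple-negative type, and on cells labelled as ρ0 cells of that line, which lack mitochondrial DNA (mtDNA). There were 4 groups of 2 libraries each. The parental control and the ρ0 control groups were not starved. The parental starved and the ρ0 starved groups were deprived of arginine for 48 h, by arginine deiminase (ADI, an enzyme that degrades arginine) at 0.3 µg/mL per the labels, whereas the study describes arginine-starved medium. The ρ0 libraries came from 1 clone (number 27), and per the study's methods ρ0 cells were kept with sodium pyruvate, uridine and ethidium bromide, so mtDNA loss, clone and medium cannot be told apart in any difference between the lines. Total counts were between 25259503 and 31022155 per library. No label states whether replicates were separate cultures, so p-values measure only the spread between these libraries, which may be technical. That spread was estimated for each gene over all 4 groups together, so the spread within any group enters every comparison.

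The line markers were checked before the comparisons. VIM, CD44, KRT8 and KRT18, 4 genes that MDA-MB-231 cells express, were present in all 8 libraries, with VIM between 522 and 3635 CPM (counts scaled to library size). ESR1 and PGR, the estrogen and progesterone receptors, were at 0 or at most 0.180 CPM. ERBB2, listed here as low in this line, was between 30.1 and 86.9 CPM in all libraries. CDH1, which encodes E-cadherin, was at 0 to 0.0709 CPM in the parental libraries and at 15.8, 14.2, 4.77 and 4.31 CPM in ρ0 control 1 and 2 and ρ0 starved 1 and 2. EPCAM, an epithelial adhesion molecule, was at 0 to 0.521 CPM in parental cells, and its ρ0 values in the same order were 23.7, 22.4, 19.8 and 16.4 CPM. ASS1, the arginine-synthesis gene whose silencing makes cells depend on external arginine, was at 0.0396 to 0.300 CPM in parental cells and at 6.35, 11.5, 23.1 and 22.3 CPM in ρ0 cells. PECAM1 and PTPRC, markers of endothelium and blood, were at most 3.16 and 0.452 CPM. The clone therefore carried 3 transcripts that the parental libraries held only near 0, and the part of this difference in the results between lines was not tested. Whether the clone descends from the parental line was not tested either, so a difference in origin and the loss of mtDNA cannot be told apart.

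The 2 ρ0 control libraries stood apart from each other. The biological coefficient of variation within a group was 25.1% for ρ0 control, against 5.18%, 2.25% and 1.84% for parental control, parental starved and ρ0 starved. Across the members the median absolute log2 difference between replicates was 0.22 in ρ0 control, 0.09 in parental control, 0.05 in parental starved and 0.03 in ρ0 starved, where all tested genes had 0.28, 0.09, 0.07 and 0.06. Between the ρ0 controls 1 member, CYCS, differed by more than 1.5-fold. In parental control, 37 of 41 members were higher in replicate 2, or 90.2% against 51.3% of all tested genes. Counts by complex, joint counts over both lines or both media and counts without overlap are given below with all libraries only. Total counts of called members in ρ0 starvation, in the interaction and between control lines are also given without either ρ0 control library. Leaving 1 of them out moved the value by over 1.5 times for 24 members in ρ0 starvation, 22 in the interaction and 19 between control lines, of which 8, 1 and 5 were called with all libraries, and 11, 14 and 9 of the others gained a call.

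The respiratory chain passes electrons from complexes I and II through ubiquinone to complex III, then by cytochrome c to complex IV, which reduces oxygen. Complexes I, III and IV pump protons, and the ATP synthase uses the gradient to make ATP. Complex II is built from nuclear genes only, whereas complexes III, IV and V each contain subunits encoded by mtDNA, including cytochrome b, the catalytic core of complex IV and a part of the proton channel of complex V. A ρ0 cell cannot make those subunits while its nuclear genes for the partner subunits are still transcribed. Of 6 mtDNA-encoded subunits looked up by symbol, 0 were found in the count table. Their levels could therefore not be compared, and the loss of mtDNA was not checked in these data.

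Summed levels of the members were taken first, by complex. In parental cells the sum over all members was 5617 and 5941 CPM in the controls and 5759 and 5824 CPM in the starved libraries, so the groups overlapped. Without CYCS, which encodes cytochrome c, the other 40 members summed to 5414 and 5744 CPM in the parental controls and to 5073 and 5111 CPM after starvation, and the groups did not overlap. In ρ0 cells it was 5345 and 5224 CPM in the controls and 4283 and 4252 CPM after starvation, without overlap, and without CYCS 5225 and 5005 and then 4021 and 3996 CPM. For complex II, the parental controls held 396 and 405 CPM and the starved libraries 305 and 315, and the ρ0 controls held 388 and 381 CPM and the starved libraries 280 and 280. The complex III sum, which includes cytochrome c, was 1327 and 1425 CPM in parental controls and 1720 and 1730 CPM after starvation, and in ρ0 cells 1055 and 1138 CPM and then 1056 and 1050 CPM. CYCS alone accounted for 686 and 714 CPM of the starved parental sum. The 9 other genes of complex III went the opposite way in parental cells, from 1125 and 1228 CPM to 1034 and 1016 CPM, and in ρ0 cells went from 935 and 919 CPM to 794 and 794 CPM. The complex IV sum was 1290 and 1396 CPM in parental controls and 1289 and 1288 CPM after starvation, and in ρ0 cells 1505 and 1255 CPM and then 1168 and 1155 CPM. Complex V changed from 2604 and 2716 CPM to 2445 and 2492 CPM in parental cells and from 2398 and 2450 CPM to 1779 and 1767 CPM in ρ0 cells. These are bulk libraries, in which less RNA per cell and fewer cells of a kind cannot be told apart.

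**Figure D1:**
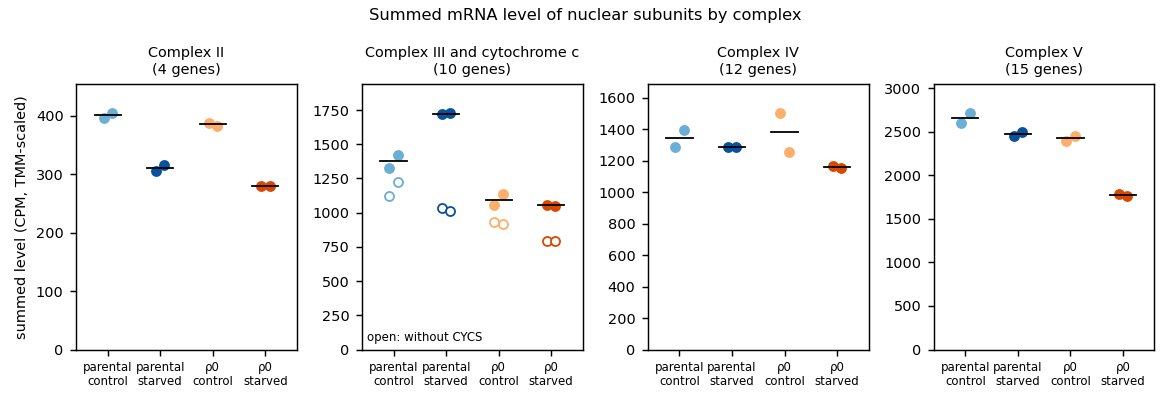
Summed level of the nuclear subunits of each complex (vertical axes, TMM-scaled CPM, each starting at 0) in the 4 groups; filled points are the 2 libraries of a group, lines are their means, and open points are complex III without CYCS. Starved ρ0 libraries hold the lowest complex V sums, at 1779 and 1767 CPM, and starved parental libraries the highest complex III sums with CYCS, at 1720 and 1730 CPM, which are 1034 and 1016 CPM without it.

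The members were next examined for sequence features that their choice did not use. Nuclear respiratory factor 1 (NRF1) and the ETS factor GABPA are known to bind promoters of many respiratory chain genes. In RefSeq promoters of GRCh38.p14, from 250 bases before to 50 after a gene's start, 32 of the 41 members were found (all but SDHC, UQCRB, CYC1, COX6C, COX7A1, ATP5B, ATP5D, ATP5G3 and ATP5J2). The letters GCGCATG, a core of the NRF1 motif, were searched on both strands and found in 9 of the 32, or 28.1%, against 4.67% of 27305 promoters and 7.11% of the 11828 promoters of tested genes. CCGGAAG, a core of the ETS motif, stood in 14 members, or 43.8%, against 10.7% and 17.8%. Both were found in 6 members (SDHB, SDHD, COX5B, COX6A1, ATP5J and ATP5I), or 18.8%, against 0.897% and 1.70%. Neither was found in 15 members, or 46.9%, against 85.6% and 76.8%. A match is a run of letters and not a shown binding site. Stretches of 4 promoters are printed, all picked from the 9 that hold the NRF1 letters, so they do not stand for the members in general. Their genes responded differently below: SDHB fell in starved parental cells, SDHD and COX6A1 rose there, and CYCS rose most. SDHA, UQCRC1, COX5A and ATP5A1, which had the largest called falls of their complexes in starved ρ0 cells, held neither run of letters. Each is given 5′ to 3′ on the gene's strand, with both motifs, in either orientation, in capitals.
SDHB (chr1:17054144-17054241, minus strand): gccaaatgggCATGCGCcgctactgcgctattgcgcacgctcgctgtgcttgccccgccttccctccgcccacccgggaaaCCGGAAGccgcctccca
SDHD (chr11:112086753-112086812, plus strand): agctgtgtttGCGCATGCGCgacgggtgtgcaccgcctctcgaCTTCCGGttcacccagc
COX6A1 (chr12:120437886-120438112, plus strand): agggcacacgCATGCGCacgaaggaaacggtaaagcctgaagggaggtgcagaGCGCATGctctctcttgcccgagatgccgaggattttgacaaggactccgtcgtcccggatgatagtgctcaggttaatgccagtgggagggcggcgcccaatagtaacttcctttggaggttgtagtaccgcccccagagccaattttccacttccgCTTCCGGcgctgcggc
CYCS (chr7:25125412-25125438, minus strand): tgctcgccagCATGCGCgcgcaggtcc
In SDHD the NRF1 letters occur in both orientations and overlap, starting 110 and 107 bases before the gene's start, with the ETS letters at 77. SDHB has the NRF1 letters at 199 and the ETS letters at 128 bases before the start. COX6A1 holds the NRF1 letters at 217 and 174 and the ETS letters at 16. CYCS has the NRF1 letters at 168 bases before the start, and no CCGGAAG was found in its window.

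In parental cells, the first comparison asked how 48 h without arginine changed the nuclear subunit mRNAs. Of the 41 members, 11 rose and 15 fell at an adjusted p under 0.05 in edgeR's quasi-likelihood test, and 15 did not pass. Among all tested genes 30.4% rose and 35.5% fell, against 26.8% and 36.6% of the members, so the members' shares were near the background in both directions. Their median log2 change was -0.11, and that of all tested genes was -0.07. Where libraries were scaled by upper quartile, 8 rose and 17 fell (26.3% and 39.6% of all genes), and by total counts 5 and 20 (24.7% and 41%), while the median of all genes shifted by -0.12 and -0.16. Without parental control 1 there were 6 rises and 15 falls, without parental control 2 there were 7 and 12, and without either parental starved library 6 rises and 12 or 13 falls. In these 4 fits 23.4% to 23.9% of all tested genes rose and 28.1% to 29.1% fell. Between starved and control libraries 14 members lay wholly higher and 21 wholly lower, where 41.9% and 47.3% of all tested genes did. The calls also depended on the ρ0 libraries, which share in the estimate of spread. In a fit to the 4 parental libraries alone, 13 of 40 tested members rose and 18 fell (32.5% and 45%). Of all genes tested in that fit 40.5% rose and 42.5% fell.

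Complex II had 3 falls and 1 rise among 4 members (75% and 25%, against 35.5% and 30.4% of all tested genes). SDHA, the flavoprotein that oxidises succinate, was at 212 and 212 CPM in parental controls and at 150 and 154 CPM after starvation, a log2 change of -0.48 ± 0.08 (SE, adjusted p = 0.00097). SDHB, the iron-sulfur subunit that takes electrons from SDHA, went from 89.5 and 99.4 CPM to 69.1 and 72.4 CPM (-0.42 ± 0.08, adjusted p = 0.0028). Both catalytic subunits were lower in each starved library than in each control. Of the 2 membrane anchors, which bind ubiquinone together, SDHC fell from 45.1 and 43.1 CPM to 26.3 and 28.4 CPM (-0.69 ± 0.09, adjusted p = 0.00030). SDHD, its partner, rose from 49.8 and 50.02 CPM to 59.0 and 60.4 CPM (0.26 ± 0.07, adjusted p = 0.013). Anchor subunits of 1 complex thus had opposite signs. The SDHD call, but not its sign, was lost without any 1 of the 4 parental libraries, where its change was between 0.24 and 0.27, and under upper quartile and total count scaling, where it was 0.14 and 0.098.

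In complex III, 3 members rose and 4 fell (30% and 40%, against 30.4% and 35.5% of all tested genes). The 4 that fell were the core and redox subunits. UQCRC1, a core protein on the matrix side, showed the largest fall, from 96.2 and 102 CPM to 55.5 and 53.7 CPM (-0.86 ± 0.07, adjusted p = 5e-05). UQCRC2, the other core protein, fell from 158 and 160 CPM to 119 and 119 CPM. The redox subunits are UQCRFS1, the Rieske iron-sulfur protein, which fell by 0.48 on the log2 scale, and CYC1, cytochrome c1, which went from 382 and 428 CPM to 282 and 249 CPM (-0.61 ± 0.16, adjusted p = 0.012). Among the small subunits 2 rose, UQCRH, the hinge protein that helps cytochrome c dock (143 and 160 to 207 and 219 CPM, log2 change 0.49), and UQCR11 (0.41). UQCRB, UQCRQ and UQCR10 did not pass, at -0.11, 0.21 and -0.13. UQCR10 was at -0.24 without parental control 1 and at -0.02 without parental control 2, and UQCRB at -0.07 without ρ0 control 2. CYCS, the mobile electron carrier that also starts the caspase cascade when released from mitochondria, had the largest change of all members. It was at 203 and 197 CPM in the controls and at 686 and 714 CPM in the starved libraries, a 3.501-fold rise (log2 1.81 ± 0.24, adjusted p = 0.00041). It was the only member that rose beyond log2 1, which 12.7% of tested genes did. The UQCR11 call was lost under total count scaling, at 0.25, and without parental control 1 or parental starved 2, and that of CYC1 without parental control 2 or parental starved 2.

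Complex IV had 4 rises and 3 falls among 12 members (33.3% and 25%, against 30.4% and 35.5% of all tested genes). COX5A, a matrix-side subunit, fell from 111 and 132 CPM to 66.6 and 65.0 CPM (-0.88 ± 0.14, adjusted p = 0.00092). COX7C and COX4I1 fell by 0.64 and 0.23 on the log2 scale. COX7A2, the isoform of subunit 7A that most tissues express, rose from 63.2 and 69.9 CPM to 107 and 105 CPM (0.67 ± 0.13, adjusted p = 0.0031). COX7A2L, a relative that joins complexes III and IV into supercomplexes, rose from 117 and 117 CPM to 149 and 153 CPM (0.36 ± 0.07, adjusted p = 0.0024). COX6A1 and COX7B also rose, by 0.36 and 0.42. COX7A1, the heart and muscle isoform, had between 2 and 12 counts in every library, too few for a fold change. COX5B, COX6B1, COX6C and COX8A lay between -0.33 and 0.10 and did not pass. The calls of COX4I1 and COX7B were each lost in 6 of 17 alternatives, that of COX7B under upper quartile and total count scaling and without any 1 of the 4 parental libraries. That of COX4I1 was lost with no filter on low counts and without parental control 2 or any 1 of the 4 starved libraries, and that of COX6A1 under total count scaling and without parental starved 1. Total count scaling gave 0.20 for COX6A1, 0.26 for COX7B, 0.20 for COX7A2L and -0.39 for COX4I1.

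In complex V, 3 members rose and 5 fell (20% and 33.3%, against 30.4% and 35.5% of all tested genes). Of the 5 F1 head and stalk subunits 3 fell (60%) and none rose. ATP5A1, the alpha subunit, went from 391 and 393 CPM to 177 and 187 CPM (-1.11 ± 0.07, adjusted p = 1.8e-05). ATP5D, the delta subunit of the central stalk, went from 49.0 and 55.0 CPM to 24.0 and 24.4 CPM (-1.11 ± 0.12, adjusted p = 0.00015). These were the 2 members that fell beyond log2 -1, which 22.1% of tested genes did. ATP5C1, the gamma subunit, fell by 0.73. ATP5B, the catalytic beta subunit that forms a ring with alpha, stayed out of the calls, at 1089 and 1141 CPM in controls and 1090 and 1099 CPM after starvation (-0.03 ± 0.09, adjusted p = 0.81). Alpha and beta subunits are present in equal number in the enzyme, and of their mRNAs 1 fell and the other did not pass. In the peripheral stalk ATP5F1, subunit b, rose from 152 and 161 CPM to 235 and 243 CPM (0.61 ± 0.11, adjusted p = 0.0018), ATP5H and ATP5O fell by 0.43 and 0.31, and ATP5J did not pass. Of the c-ring genes, which encode the same mature protein, ATP5G1 rose from 90.9 and 95.1 CPM to 122 and 126 CPM (0.42 ± 0.13, adjusted p = 0.027). ATP5G2, at 121 and 126 and then 106 and 112 CPM (-0.18), and ATP5G3, at 183 and 185 and then 199 and 204 CPM (0.13), did not pass. ATP5L, a membrane subunit near the dimer interface, rose by 0.42, and ATP5I and ATP5J2 did not pass. As for SDHD, the ATP5G1 call was lost without any 1 of the 4 parental libraries, at changes between 0.39 and 0.45, and under upper quartile and total count scaling, the latter at 0.26. The calls of ATP5O and ATP5L were each lost in 5 of 17 alternatives, and total count scaling gave -0.47 and 0.26 for them.

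**Figure D2:**
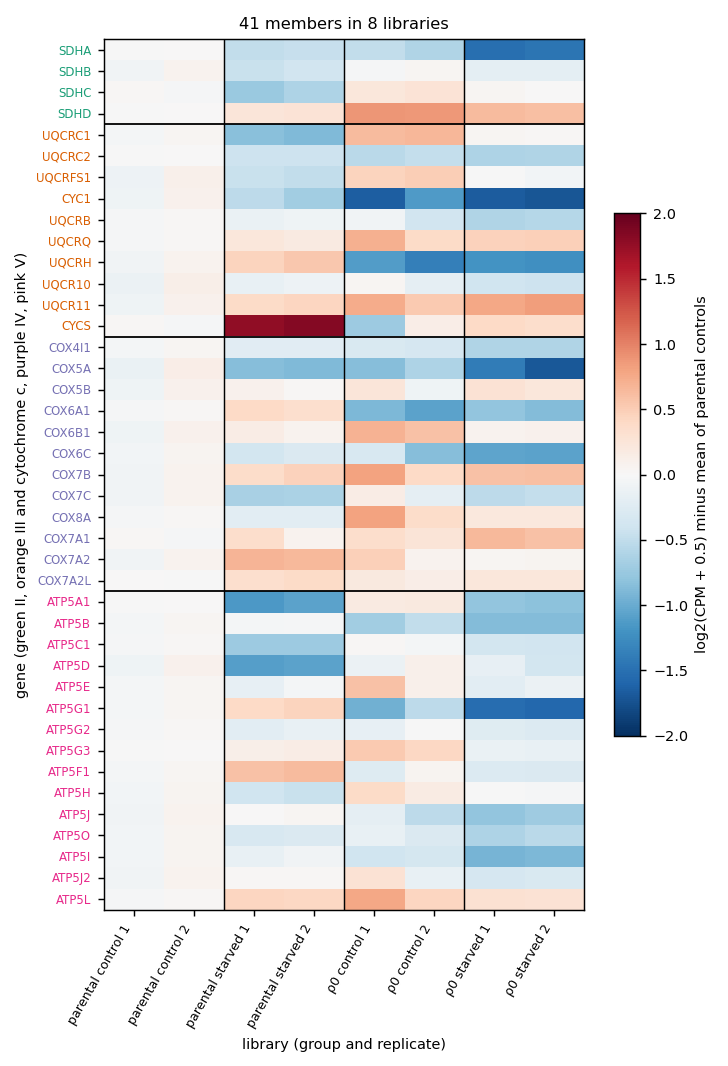
Each row is a member and each column a library, and the colour is log2(CPM + 0.5) minus the mean of the parental controls (red higher, blue lower, colour scale from -2 to 2). CYCS is the reddest row in starved parental cells, and SDHA, CYC1, UQCRH and ATP5G1 are among the bluest in starved ρ0 cells.

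The same question was asked in ρ0 cells. After starvation 21 members fell, none rose, and 20 did not pass, where 22.1% of all tested genes fell and 19.2% rose. The members' share of falls was 51.2%. Their median log2 change was -0.32 and that of all tested genes -0.02. Starved libraries lay wholly below the controls for 32 members and wholly above for 5, against 34.5% and 32.9% of all tested genes. The count of 0 rises was that of edgeR over all 8 libraries with the filter on low counts, and limma-voom gave 0 as well. CYCS was called higher with no filter, by DESeq2 and without either ρ0 control. At an unadjusted p under 0.05 edgeR had 1 rise, CYCS, and 26 falls, and DESeq2 called the same 1 rise and 22 falls. No called member lay beyond log2 1 in either direction, where 4.22% of tested genes were above and 8.19% below. The number of falls changed with the libraries used. It was 30 without ρ0 control 1, with 5 rises (UQCR11, CYCS, COX5B, COX6A1 and COX7B), and 29 without ρ0 control 2, with 1 rise (CYCS). In these fits 73.2% and 70.7% of the members fell, against 31.8% and 31.6% of all tested genes. It was 8 (19.5%) without either ρ0 starved library, where 10.4% and 9.94% of tested genes fell, and 12 (29.3%) without either parental starved library, where 17.5% did. It was 15 (36.6%) without either parental control, where 17.8% and 17.7% fell, and 9 (22.0%) in a fit to the 4 ρ0 libraries alone, where 11.8% fell. All 21 kept their sign under every alternative tried, and 7 of them kept their call: SDHA, UQCRC1, COX5A, COX6B1, ATP5A1, ATP5G1 and ATP5G3.

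All 15 complex V members had a negative log2 change in ρ0 cells, as 51.2% of all tested genes did, and 10 of them fell, where 22.1% of tested genes fell, with a median of -0.37 and a range from -0.998 to -0.18. ATP5A1 went from 443 and 450 CPM to 225 and 222 CPM (-0.998 ± 0.07, adjusted p = 0.00016). In the c ring, ATP5G1 went from 47.7 and 64.8 CPM to 31.9 and 30.9 CPM (-0.84 ± 0.14, adjusted p = 0.0029) and ATP5G3 from 265 and 246 CPM to 167 and 166 CPM (-0.62 ± 0.07, adjusted p = 0.00079). ATP5G2 did not pass, at 110 and 122 CPM and then 104 and 101 CPM (-0.18 ± 0.08, adjusted p = 0.12), and was at -0.09 without ρ0 control 2. ATP5B, ATP5C1, ATP5E, ATP5H, ATP5I, ATP5J and ATP5O fell by between 0.29 and 0.55. Of these calls those of ATP5B, ATP5E, ATP5H and ATP5J were lost in 8, 7, 10 and 7 of 17 alternatives. Without ρ0 control 1 the changes of ATP5E, ATP5H and ATP5J were -0.28, -0.18 and -0.23 in place of -0.53, -0.30 and -0.41, and without ρ0 control 2 that of ATP5B was -0.17 in place of -0.29. ATP5D, which in parental cells had fallen beyond log2 -1, was at 47.8 and 55.6 CPM in ρ0 controls and 46.1 and 39.97 CPM after starvation (-0.26 ± 0.12, adjusted p = 0.11), with changes of -0.13 without ρ0 control 2 and -0.14 without ρ0 starved 2.

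SDHA had the largest fall of complex II in ρ0 cells, from 151 and 139 CPM to 74.3 and 77.0 CPM (-0.94 ± 0.08, adjusted p = 0.00022). SDHD went from 92.2 and 91.9 CPM to 77.6 and 76.3 CPM (-0.26 ± 0.07, adjusted p = 0.021), a call lost without any 1 of the 4 starved libraries, with no filter on low counts and in the fit to ρ0 libraries alone. SDHB (93.2 and 97.1 to 82.6 and 82.2 CPM, -0.21) and SDHC (51.6 and 53.5 to 45.2 and 44.2 CPM, -0.23) did not pass, although each starved value was under each control value. In complex III, UQCRC1 fell from 153 and 157 CPM to 102 and 101 CPM (-0.61 ± 0.07, adjusted p = 0.00074). UQCRFS1, UQCRB and UQCR10 fell by 0.50, 0.37 and 0.34, the last 2 with calls lost in 7 of 17 alternatives each and with changes of -0.20 and -0.23 without ρ0 control 1. CYCS was at 120 and 219 CPM in ρ0 controls and at 262 and 256 CPM after starvation (0.61 ± 0.24, adjusted p = 0.074), so the starved values were above both controls without a call. It was called higher when either ρ0 control was left out, at 0.24 without ρ0 control 1 and at 1.123 without ρ0 control 2. In complex IV, COX5A went from 67.1 and 78.8 CPM to 45.6 and 36.8 CPM (-0.82 ± 0.14, adjusted p = 0.0033), and COX6B1, which stabilises the dimer, from 126 and 116 CPM to 81.7 and 82.1 CPM (-0.56 ± 0.09, adjusted p = 0.0025). COX4I1, COX6C and COX7C fell by 0.28, 0.51 and 0.50. Without ρ0 control 1 the changes of COX6C and COX7C were -0.21 and -0.32, and the calls of COX6C and COX4I1 were lost in 8 and 5 of 17 alternatives. COX7A2 and COX7A2L, at -0.23 and 0.06, did not pass. COX7A2 was at -0.01 without ρ0 control 1 and was called lower, at -0.41, without ρ0 control 2.

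Set side by side, 10 members fell in both lines, or 24.4% against 14.6% of all tested genes: SDHA, UQCRC1, UQCRFS1, COX4I1, COX5A, COX7C, ATP5A1, ATP5C1, ATP5H and ATP5O. ATP5G1 and SDHD, 4.88% of the members, rose in parental and fell in ρ0 cells, as 1.65% of all tested genes did. A further 9 rose in parental cells without a call in ρ0 cells (22.0% against 15.6%), 5 fell in parental cells without a call in ρ0 cells (12.2% against 19.0%), and 9 fell in ρ0 cells without a call in parental cells (22.0% against 5.86%). For 6 members (ATP5G2, ATP5J2, COX5B, COX7A1, COX8A and UQCRQ) neither line gave a call (14.6% against 24.1%). The shares rest on the calls as reported, of which 17 of 26 in parental and 7 of 21 in ρ0 cells held under every alternative. A call in 1 line alone does not show a difference between lines, which was tested directly as follows.

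**Figure D3:**
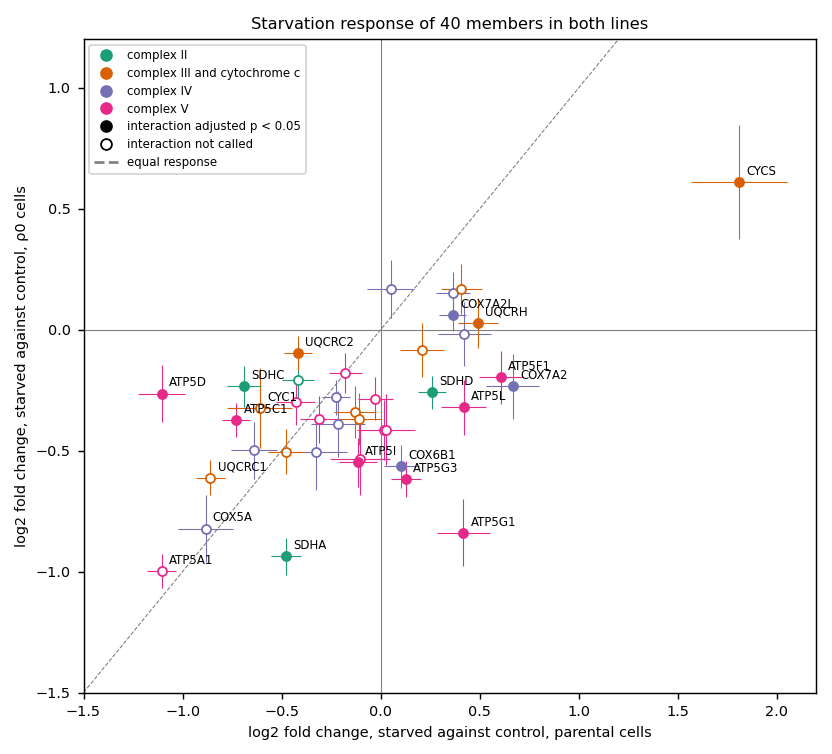
Log2 fold change on starvation in parental cells (horizontal) against ρ0 cells (vertical) for 40 members (COX7A1 is left out for its low counts), with SE bars; colour gives the complex and filled points passed the interaction test at an adjusted p under 0.05. CYCS lies far right at 1.81 and 0.61, ATP5G1 lies lower right at 0.42 and -0.84, and ATP5A1 lies near the dashed line of equal response at -1.11 and -0.998.

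The interaction, that is the starvation response of ρ0 cells minus that of parental cells, was called for 16 members, 4 positive and 12 negative, and 25 did not pass. Of all tested genes 21.6% were positive and 18.8% negative, against 9.76% and 29.3% of the members, whose median was -0.21 (0.02 for all tested genes). Beyond log2 -1 there were 2 members, ATP5G1 and CYCS (6.62% of tested genes), and no called member was above log2 1 (13.3%). With upper quartile or total count scaling there were 5 positive and 9 negative calls (24.3% or 24.2% and 14.9% or 15.2% of all tested genes). All 16 kept their sign under the alternatives tried and 8 kept their call, namely SDHD, COX6B1, COX7A2, ATP5D, ATP5G1, ATP5G3, ATP5F1 and ATP5L. Without ρ0 control 1 there were 8 positive and 15 negative calls, without ρ0 control 2 there were 7 and 24, and without any other library 1 and 7. Of all tested genes 34.2% were positive and 31.7% negative in the first of these fits, 29.8% and 29.7% in the second, and 12.5% to 14.3% and 9.43% to 11.1% in the rest.

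Of the members ATP5G3, ATP5G1 and COX6B1 had the smallest interaction p-values. For ATP5G1 the difference between responses was -1.26 ± 0.19 on the log2 scale (adjusted p = 0.0028), for ATP5G3 -0.75 ± 0.10 (adjusted p = 0.0020) and for COX6B1 -0.67 ± 0.13 (adjusted p = 0.0060). The third c-ring gene, ATP5G2, had equal responses of -0.18 in both lines, an interaction of -0.0001 ± 0.12. Thus 2 of 3 genes for the same mature protein responded differently in the 2 lines, beyond the spread of replicates. CYCS showed a difference of -1.20 ± 0.33 (adjusted p = 0.025), and its range was -1.56 to -0.72 when 1 library was left out, the end values coming without ρ0 control 1 and without ρ0 control 2, whose levels were 120 and 219 CPM. COX7A2 was at 92.6 and 69.4 CPM in ρ0 controls and 68.6 and 69.1 CPM after starvation, and its interaction was -0.90 ± 0.19 (adjusted p = 0.0087). ATP5F1 and ATP5L had interactions of -0.80 and -0.74 and SDHD of -0.52.

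Positive interactions were those of ATP5D (0.84 ± 0.17, adjusted p = 0.0073), SDHC (0.45 ± 0.12, adjusted p = 0.021), ATP5C1 (0.35) and UQCRC2 (0.32), all of which had fallen more in parental cells. SDHA had a negative interaction of -0.46 ± 0.11 (adjusted p = 0.014), having fallen in both lines and more in ρ0 cells. UQCRH, ATP5I and COX7A2L were negative at -0.46, -0.43 and -0.30. For SDHA, SDHC and CYCS the call was lost without any 1 of the 4 parental or 2 ρ0 starved libraries. That of ATP5C1 was lost in 6 of 16 alternatives, and those of UQCRC2, UQCRH, ATP5I and COX7A2L in at least 8.

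**Figure D4:**
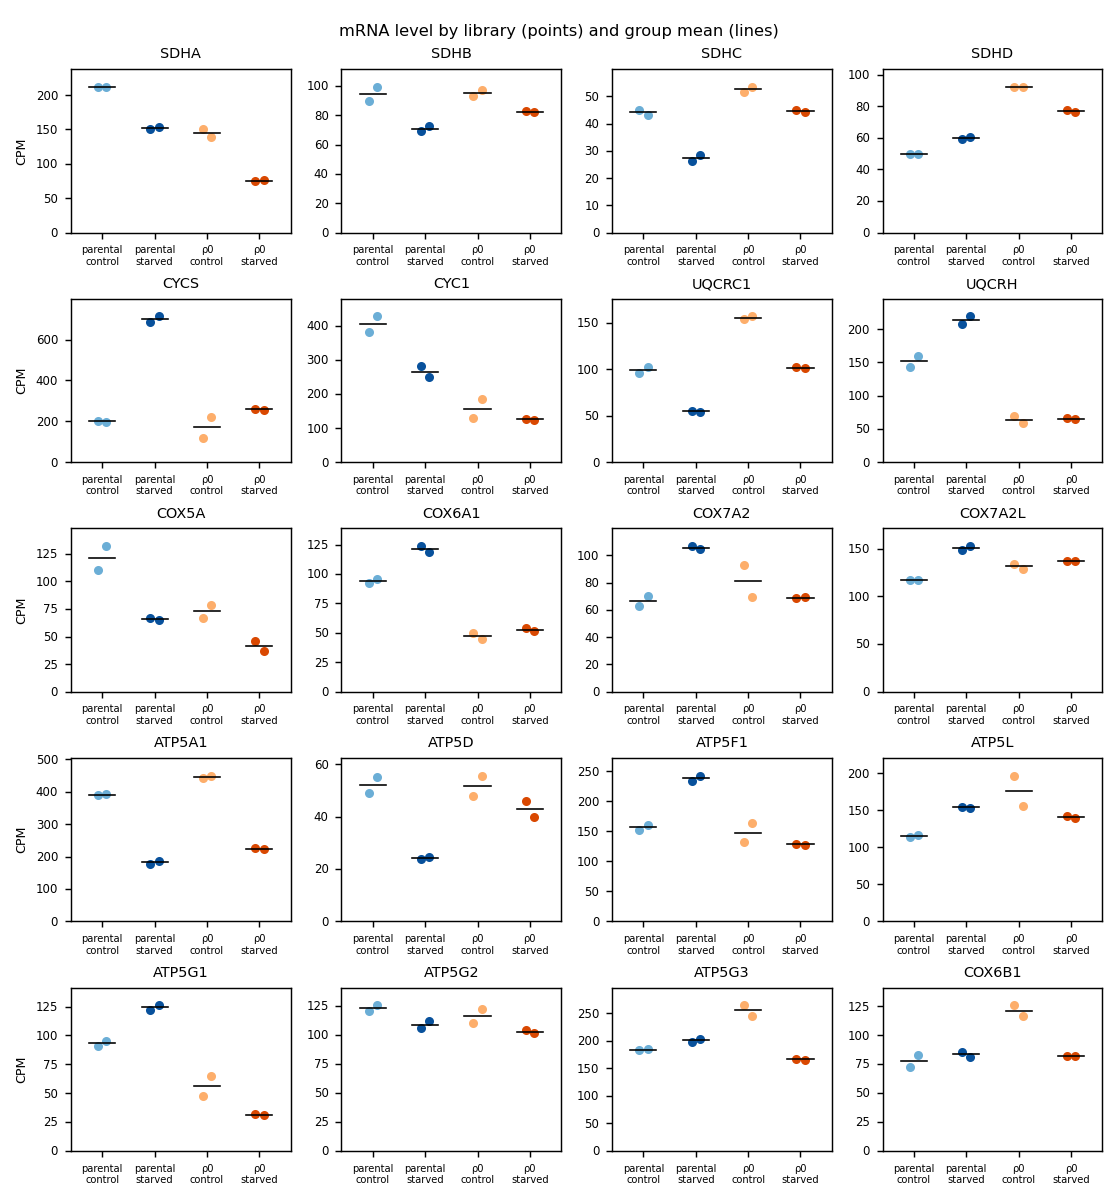
TMM-scaled CPM (vertical axes from 0) of 20 members in the 4 groups; points are the 2 libraries of a group and lines the group means. The c-ring genes differ in pattern, ATP5G1 being highest in starved parental cells at 122 and 126 CPM, ATP5G3 highest in ρ0 controls at 265 and 246 CPM, and ATP5G2 between 101 and 126 CPM in all 8 libraries.

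The next comparison set ρ0 against parental cells in full medium. Of the 41 members 13 were higher and 12 lower in ρ0 cells, and 16 did not pass. Among all tested genes 30.5% were higher and 31.8% lower, against 31.7% and 29.3% of the members, close to the background. The members' median difference was -0.01, equal to that of all tested genes at 2 decimals. Total count scaling gave 10 higher and 14 lower (26.8% and 35.3% of all tested genes). Values of the 2 lines did not overlap for 16 members higher and 14 lower in ρ0 cells, against 37.3% and 39.9% of all tested genes. Without ρ0 control 1 there were 15 higher and 16 lower (37.7% and 39.5% of all tested genes), and without ρ0 control 2 there were 19 and 13 (39.0% and 37.3%). Of the 25 calls, 19 held under every alternative tried.

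Among called members CYC1 differed most. It was at 129 and 185 CPM in ρ0 controls against 382 and 428 CPM in parental controls (-1.37 ± 0.17, adjusted p = 0.00028). UQCRH was at 69.2 and 58.6 CPM in ρ0 controls, against its parental 143 and 160 CPM (-1.25 ± 0.10, adjusted p = 4.6e-05). Both sit at the cytochrome c docking side of complex III, and they were the 2 members beyond log2 -1, which 17.3% of tested genes passed. No called member was above log2 1, where 13.6% of tested genes were. The rest of complex III went otherwise, with UQCRC1 higher at 0.65 ± 0.07 (adjusted p = 0.00018), UQCR11, UQCRQ and UQCRFS1 higher at 0.64, 0.56 and 0.47, UQCRC2 lower at -0.51, and UQCRB, UQCR10 and CYCS not called. CYCS, at -0.24, changed sign with the library left out, being called higher at 0.14 without ρ0 control 1 and lower at -0.68 without ρ0 control 2. UQCRB was called lower at -0.38 without ρ0 control 1 and was at -0.0098 without ρ0 control 2.

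SDHD showed the highest positive difference of any called member, 92.2 and 91.9 CPM in ρ0 against 49.8 and 50.02 CPM in parental controls (0.88 ± 0.07, adjusted p = 3.5e-05). SDHC was higher at 0.25 ± 0.08 (adjusted p = 0.033), a call lost in 6 of 16 alternatives, among them leaving out any 1 parental library and total count scaling. SDHA was lower at -0.55 ± 0.08 (adjusted p = 0.00054), and SDHB differed by 0.01 ± 0.08 (adjusted p = 0.92). Complex II thus held anchors higher and the flavoprotein lower in ρ0 cells. In complex IV, COX6A1 was at 50.1 and 44.7 CPM against 92.2 and 95.9 CPM (-0.99 ± 0.09, adjusted p = 5.7e-05), COX5A, COX6C and COX4I1 were lower at -0.73, -0.57 and -0.32, and COX6B1, COX7B and COX8A were higher at 0.64, 0.61 and 0.60. The COX6C difference was -0.86 without ρ0 control 1 and -0.27 without ρ0 control 2, and without ρ0 control 1 those of COX7B and COX8A were 0.40 and 0.36. COX7A2 and COX7A2L differed by 0.28 and 0.17, not called. COX7A2 was at 0.06 without ρ0 control 1 and was called higher, at 0.53, without ρ0 control 2. In complex V, ATP5G1 was lower at -0.72 ± 0.14 (adjusted p = 0.0025) and ATP5B at -0.59 ± 0.09 (adjusted p = 0.00085), with 691 and 791 CPM in ρ0 controls. ATP5I and ATP5J were lower at -0.39 and -0.34. The ATP5J call was lost in 9 of 16 alternatives, and its difference was -0.52 without ρ0 control 1 and -0.12 without ρ0 control 2. ATP5L, at 197 and 155 CPM against 113 and 117 CPM, was higher at 0.61 ± 0.11 (adjusted p = 0.0023), as were ATP5G3 (0.47), ATP5H (0.29) and ATP5A1 (0.19). The ATP5A1 call was lost in 11 of 16 alternatives, one of them total count scaling at 0.09, and that of ATP5H in 5, and the ATP5H difference was 0.17 without ρ0 control 1 and 0.45 without ρ0 control 2.

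When both lines were starved, 11 members were higher and 19 lower in ρ0 cells, and 11 did not pass. Of all tested genes 32.9% were higher and 33.5% lower, against 26.8% and 46.3% of the members, with a median of -0.14 (-0.01 for all tested genes). Values did not overlap for 16 members higher and 23 lower, against 44.7% and 46.0% of all tested genes. Without 1 library there were 8 to 15 higher and 14 to 22 lower members, where 25.9% to 40.6% and 25% to 40.5% of all tested genes were, and 20 of the 30 calls held under every alternative tried. The comparison shares its libraries with the starvation contrasts above.

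ATP5G1 was the member that differed most, at 31.9 and 30.9 CPM in starved ρ0 against 122 and 126 CPM in starved parental cells, 3.95-fold lower (log2 -1.98 ± 0.14, adjusted p = 1.8e-05). UQCRH was 3.27-fold lower, at 65.9 and 64.2 against 207 and 219 CPM (-1.71 ± 0.11, adjusted p = 9.4e-06). CYCS was lower at -1.43 ± 0.24 (adjusted p = 0.0012), COX6A1 at -1.20 ± 0.09 (adjusted p = 2e-05), CYC1 at -1.08 ± 0.17 (adjusted p = 0.00080) and SDHA at -1.01 ± 0.08 (adjusted p = 2.5e-05). These 6 were the members beyond log2 -1, which 16.8% of tested genes passed, and no called member was above log2 1, where 18.7% were. The highest positive differences among called members were those of UQCRC1 (0.89 ± 0.07, adjusted p = 3.4e-05), ATP5D (0.83 ± 0.12, adjusted p = 0.00059) and SDHC (0.71 ± 0.09, adjusted p = 0.00025). COX8A was the 1 complex IV member called higher, at 0.43 ± 0.14 (adjusted p = 0.024), lost without any 1 of the 4 starved libraries.

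Across both media, 12 members were called lower in ρ0 cells each time (SDHA, UQCRC2, CYC1, UQCRH, COX4I1, COX5A, COX6A1, COX6C, ATP5B, ATP5G1, ATP5I and ATP5J) and 8 were higher (SDHC, SDHD, UQCRC1, UQCRFS1, UQCR11, COX8A, ATP5A1 and ATP5H). These were 29.3% and 19.5% of the members, against 20.6% and 20.0% of all tested genes. Some of these calls were lost in many of 16 alternatives, in full medium those of ATP5A1 (11), ATP5J (9), SDHC (6) and ATP5H (5) and under starvation those of UQCRC2 (9) and COX8A (4). ATP5G3 changed sides, higher in full medium at 0.47 and lower under starvation at -0.27 (adjusted p = 0.012), the latter lost without any 1 of the 4 starved libraries, and 2.33% of tested genes changed sides this way. A further 3 were called higher and 6 lower under starvation alone, including ATP5D and ATP5F1, and 4 were called higher in full medium alone, where 9.84%, 10.6% and 8.25% of all tested genes were.

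**Figure D5:**
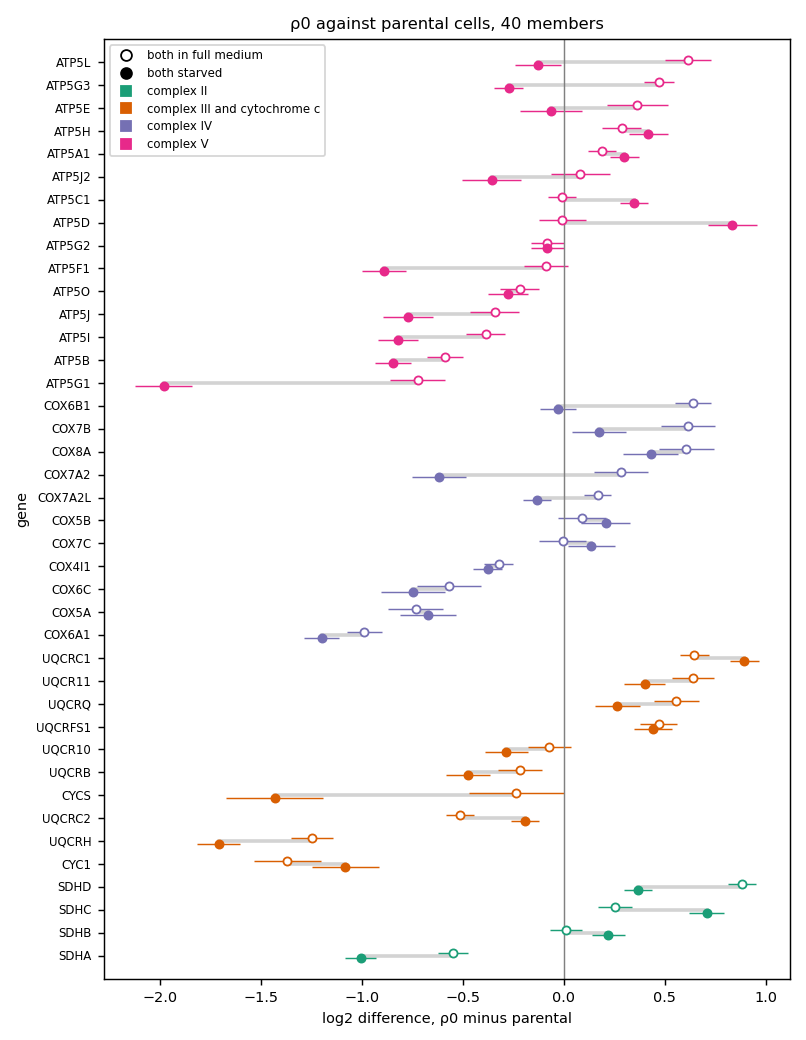
Log2 difference of ρ0 minus parental cells for 40 members (COX7A1 is left out for its low counts), ordered by complex; open points compare the controls, filled points the starved groups, and bars are SE. ATP5G1 moves from -0.72 to -1.98 and CYCS from -0.24 (0.14 or -0.68 without ρ0 control 1 or 2) to -1.43, while COX5A, at -0.73 and -0.67, hardly moves.

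Of the members, 3 share sequence with near-identical copies in the table, and how reads common to both were assigned is not given in the sources used here. ATP5E, the epsilon subunit, had 1190 to 2317 counts per library and its copy ATP5EP2 1236 to 2161. UQCRH had 1551 to 6180 counts and UQCRHL 563 to 1788, and UQCRHL moved with it, at -1.13 and -1.501 in ρ0 against parental cells in the 2 media. SDHA had 1860 to 7066 counts, against at most 233 for any of SDHAP1, SDHAP2 and SDHAP3. Levels of these 3 genes, and of other members with processed pseudogenes, are to that extent uncertain.

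Genes that work with the members were summarised list by list. Calls in these lists, and in complex I below, are from the fit to all 8 libraries. Whether they hold under the alternatives was examined for the members only. Of 53 listed assembly factors of complexes II to V, 38 were found in the table by symbol, and the others are not covered. Of the 38, 14 rose and 8 fell in starved parental cells, with a median of 0.17. In ρ0 cells 3 rose and 7 fell, with a median of -0.14. These were 36.8% and 21.1% of the factors in parental cells, against 30.4% and 35.5% of all tested genes, and 7.89% and 18.4% in ρ0 cells, against 19.2% and 22.1%. COA7, needed for complex IV assembly, rose from 52.5 and 52.0 CPM to 128 and 131 CPM in parental cells (1.31 ± 0.17, adjusted p = 0.00036). COA1, another complex IV assembly factor, fell from 210 and 199 CPM to 50.1 and 48.5 CPM (-2.05 ± 0.09, adjusted p = 6.7e-06). The interaction was 1.70 for COA1 and -1.16 for TMEM70, which assists ATP synthase assembly. In ρ0 cells LRPPRC, which stabilises mitochondrial mRNAs, rose by 0.63, and PET100 fell by 0.77. In ρ0 against parental cells, 10 factors were higher and 6 lower in full medium and 10 higher and 14 lower under starvation (26.3% and 15.8%, then 26.3% and 36.8%, against 30.5% and 31.8%, then 32.9% and 33.5% of all tested genes), with COX14 at 0.94 and COA1 at -1.43 in the first and COX20 at 0.79 and COA7 at -1.71 in the second.

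Of 11 further subunits and isoforms, 7 were tested. USMG5, a small ATP synthase subunit also called DAPIT, rose by 0.78 in starved parental cells and had an interaction of -0.95 ± 0.16 (adjusted p = 0.0039), the same signs as ATP5G1, ATP5F1 and ATP5L. NDUFA4, now counted as a complex IV subunit, fell in both lines, by 0.44 and 0.67. ATP5S was higher in ρ0 cells at 0.97 and 0.64 in the 2 media.

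Of 10 regulators of respiratory chain genes, 5 rose and 3 fell in starved parental cells, and 4 rose and 1 fell in starved ρ0 cells, where of all tested genes 30.4% rose and 35.5% fell in the first and 19.2% and 22.1% in the second. GABPA, the ETS factor whose letters were searched above, fell in both lines, from 20.4 and 17.6 CPM to 9.62 and 10.1 CPM in parental cells (-0.94 ± 0.12, adjusted p = 0.00029) and from 18.0 and 17.1 CPM to 13.8 and 13.9 CPM in ρ0 cells (-0.34 ± 0.12, adjusted p = 0.048). GABPB1, in the same list, rose in parental cells, from 30.85 and 28.93 CPM to 56.03 and 56.82 CPM. NRF1, whose letters were also searched, was not called there, at 22.55 and 22.89 CPM and then 25.23 and 28.25 CPM. In ρ0 cells neither GABPB1 nor NRF1 was called. PPRC1, a coactivator of the PGC-1 family, rose by 0.93 in parental cells. PPARGC1B, another, rose by 0.77 in ρ0 cells, where it was far lower than in parental cells, at 4.58 and 6.27 CPM against 40.95 and 35.01 CPM in full medium (-2.80 ± 0.16, adjusted p = 9.2e-06) and at -2.73 under starvation. PPARGC1A had an interaction of 0.97 and YY1 of -0.51, and SP1 was higher in starved ρ0 cells at 0.65.

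Complex I, whose nuclear subunits are most like the members in role, was compared over 37 genes. In parental cells 7 rose and 14 fell (18.9% and 37.8%, against 30.4% and 35.5% of all tested genes, median -0.11). In ρ0 cells 1 rose and 15 fell (2.70% and 40.5%, against 19.2% and 22.1%, median -0.25), beside 0% and 51.2% and -0.32 for the members of complexes II to V. The interaction was positive for 5 and negative for 11 (13.5% and 29.7%, against 21.6% and 18.8%). NDUFB7 fell most in parental cells, from 50.5 and 54.9 CPM to 13.6 and 12.8 CPM (-1.996 ± 0.10, adjusted p = 9e-06), and NDUFV3 rose in both lines, by 1.09 and 0.57. NDUFB6 fell most in ρ0 cells, by 1.18. In ρ0 against parental cells 10 were higher and 9 lower in full medium (27.0% and 24.3%, against 30.5% and 31.8%) and 10 and 15 under starvation (27.0% and 40.5%, against 32.9% and 33.5%). No test of complex I against the members was made.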

How the data were processed

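RNA-seq of 8 libraries, 2 in each of 4 groups, was analysed. What the authors deposited is a table of raw counts, 1 row per gene symbol, not scaled. The labels' processing notes name Bowtie, Partek and hg19, without versions. The annotation and strand setting are not given in the sources used here. FPKM are mentioned in the study but were not in the table.

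The fit used edgeR 4.0.16 under R 4.3.3 (filterByExpr, TMM, quasi-likelihood test, 1 mean per group over all 8 libraries, 4 residual degrees of freedom). Benjamini-Hochberg adjustment ran over 15262 of 23393 genes, and a gene was called at an adjusted p under 0.05 (two-sided). The overall biological coefficient of variation was 12.4%, which with 2 libraries a group limits what can be called. SE of a log2 change was its size divided by the square root of F. CPM are TMM-scaled (factors 0.954 to 1.08). Alternatives were DESeq2 1.42.0, limma-voom (limma 3.58.1), other scalings and filters, a replicate block, each line fitted alone, and leaving out each library.

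The members and lists were chosen with earlier results of these data known. Full values are given for members with a called log2 change beyond 1 and for the largest called rise and fall of each complex. They are also given for complex II, the c-ring genes, the COX7A family and the smallest interaction p-values. Some others, such as ATP5B and CYC1 in parental and CYCS and ATP5D in ρ0 starvation, are given in full outside this rule. For other lists the largest called rise and fall are named. UQCRHL is named as a copy. Promoters are from RefSeq (GRCh38.p14), whose coordinates are not those of hg19. All lists were described by counts, with no set test.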

Additional observations from a re-analysis of the deposited data

Results flagged for a closer look

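The starvation responses of the 2 lines differed by the interaction test (edgeR quasi-likelihood, adjusted p under 0.05) for 16 members. Of the members 9.76% were positive and 29.3% negative, against 21.6% and 18.8% of all tested genes. The difference, ρ0 minus parental, was negative on the log2 scale for SDHA (-0.46), SDHD (-0.52), UQCRH (-0.46), CYCS (-1.20), COX6B1 (-0.67), COX7A2 (-0.90), COX7A2L (-0.30), ATP5G1 (-1.26), ATP5G3 (-0.75), ATP5F1 (-0.80), ATP5I (-0.43) and ATP5L (-0.74). It was positive for SDHC (0.45), UQCRC2 (0.32), ATP5C1 (0.35) and ATP5D (0.84). Groups held 2 libraries, too few to single out a library by its distance from the others of its group.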

How the results depend on the processing

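Called members kept their sign in every alternative run, and 17 of 26 calls in parental starvation, 7 of 21 in ρ0 starvation, 8 of 16 in the interaction, 19 of 25 between control lines and 20 of 30 between starved lines held throughout. The causes of changes were not tested. In parental starvation, total count scaling left 5 members higher, and the members' median was -0.2279 with upper quartile scaling and -0.2700 with total counts, whose medians over all genes also shifted. In ρ0 starvation 1 member was higher with no filter and 1 with DESeq2, and 9 were lower in the 4 libraries of the line alone. Between starved lines the median was -0.0659 with upper quartile scaling.

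With 1 library left out, the members higher and lower were 6 to 14 and 12 to 19 in parental starvation, 0 to 5 and 8 to 30 in ρ0 starvation, 1 to 8 and 7 to 24 in the interaction, 10 to 19 and 9 to 16 between control lines and 8 to 15 and 14 to 22 between starved lines. Where this left a group with 1 library, its spread was taken to be like that of the others. The medians in that order were -0.1473 to -0.0606, -0.3913 to -0.2505, -0.3733 to -0.0960, -0.0662 to 0.0888 and -0.1534 to -0.1011.

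Over all 41 members and 5 comparisons, 32 of 205 results changed sign in 1 or more alternatives, and 0 of these were called with all libraries. Of the 32, 15 were called in 1 or more alternatives, and 3 were called higher without one ρ0 control and lower without the other (COX7B in ρ0 starvation, CYCS and COX7C between control lines). Among the 76 results of the members named by the rule on full values there were 5. ATP5G3 in parental starvation was -0.0329 and COX7A2L in ρ0 starvation -0.0151 with total counts. The ATP5G2 interaction was 0.0940 (upper quartile), 0.0836 (total counts), 0.0131 (no filter), 0.0098 (at least 10 counts in every library) and 0.0018 (limma-voom), and -0.0699 to 0.0519 with 1 library left out. With 1 library left out the COX7A1 interaction was -0.6804 to 0.4511, from counts too few for a fold change. SDHB between control lines was -0.0140 (upper quartile), -0.0871 (total counts), -0.0002 (at least 10 counts) and -0.0662 to 0.0833 with 1 library left out.

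Same-numbered libraries did not clearly deviate together (correlations -0.097 to 0.063 over 6 pairs of groups). Such values cannot exclude a small shared effect, and the labels do not say whether the numbers pair the libraries. With the replicate block the ATP5G2 interaction was 0.0023. Members higher and lower were then 11 and 15 in parental starvation (29.8% and 35% of all tested genes) and 0 and 19 in ρ0 starvation (18.3% and 20.4%). In the interaction they were 3 and 9 (20.3% and 17.3%). Between control lines they were 11 and 11 (29.7% and 31.3%) and between starved lines 10 and 16 (32.5% and 32.9%).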
